A study of Mus musculus with 5 samples.

Results

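The genes of the ionotropic and metabotropic glutamate receptors and of their auxiliary subunits were followed in RNA-seq of mouse hippocampus at the age of 3 months. The 33 genes were taken by name from the 23361 gene symbols measured in every library. They comprise 4 AMPA, 7 NMDA, 5 kainate, 1 delta and 6 metabotropic receptor genes, 8 auxiliary subunits of AMPA receptors and 2 of kainate receptors. Of the 33, 32 reached a mean of 1 FPKM over the 5 libraries and were tested. The exception was *Grin3b*, an NMDA receptor subunit, which was at 0 and 0.182 FPKM in control mice, against 0.219, 0 and 0.0479 FPKM in the *Hdac1* cKO libraries. Control mice (n = 2) had the genotype Hdac1f/f and cKO mice (n = 3) the genotype Hdac1f/f, Nestin-Cre, so that every animal carried the floxed allele and the cKO animals carried Cre in addition. Nestin-Cre is active in neural progenitors, and by the study's account *Hdac1* is deleted in neurons and astrocytes, whereas cells of other lineages such as microglia keep the gene. No group carried Cre without the floxed allele, so Cre and the deletion cannot be told apart. The study counts mice in this comparison, as many as there are libraries, and p-values measure the spread between these 5 samples.

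Glutamate is the main excitatory transmitter of the hippocampus. AMPA receptors carry most of the fast synaptic current, and NMDA receptors, which open only when glutamate is bound and the membrane is depolarized, admit the calcium that triggers long-term changes in synaptic strength. Kainate receptors act on both sides of the synapse, delta receptors organize synaptic contacts, and metabotropic receptors signal through G proteins to tune excitability and transmitter release. Auxiliary subunits travel with the channels and set their trafficking and gating. HDAC1 is one of the enzymes that strip acetyl groups from histones, and the comparison asks whether transcripts of these receptors differ when its gene is deleted.

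The deleted gene and the makeup of the libraries were examined first. *Hdac1* was at 8.95 and 13.1 FPKM in control mice, against 1.95, 3.12 and 3.37 FPKM in *Hdac1* cKO mice (log2 difference −1.66, SE 0.21, limma adjusted p = 0.219), so some signal was left in each cKO library. The estimated depth was 5140000 to 6770000 fragments per library. Steps in the low FPKM values placed the libraries in 2 sets that cross the genotypes, with control 1 and cKO 1 in the first set and control 2, cKO 2 and cKO 3 in the second, and differences within each set, first set first, are given beside most of the pooled ones. A set holds a single control, and the within-set differences are given without a p-value. All 14 neuron markers and all 12 astrocyte markers examined were detected. The neuron markers summed to 2692 and 2995 FPKM in control mice and to 2591, 2660 and 2859 FPKM in *Hdac1* cKO mice, and 13 of 14 had a negative difference (median −0.12). The astrocyte markers summed to 2795 and 2811 FPKM in control mice and to 3038, 3083 and 3199 FPKM in *Hdac1* cKO mice, with no overlap between the groups. Markers of the choroid plexus, a neighbouring tissue, varied from 6.33 to 604 FPKM in sum, and those of thalamus from 39 to 54.5 FPKM. The part of these differences in the results was not tested. In bulk tissue, fewer cells of a type and less RNA per cell cannot be told apart. By staining of sections, the study found the abundance of neurons, astrocytes and microglia not significantly changed at this age. It also reports GFAP intensity as not different in these young mice.

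The members set apart most clearly by genotype were the group II metabotropic receptors *Grm2*, with a mean of 6.18 FPKM in *Hdac1* cKO against 10.4 FPKM in control, and *Grm3*, with 50.5 FPKM against 38.2 FPKM. For the other 30 tested members the 95% interval of the difference included 0. No member passed an adjusted p of 0.05 in limma (0 of 32, against 1 of all 12740 tested genes, or 0.00785%), and the smallest adjusted p among the members was 0.955. At an unadjusted p under 0.05 with a fold of at least 1.5, the limits the study states without naming its test, applied here with limma on the log2(FPKM + 1) scale, 1 member was called, *Grm2* (3.12% of 32), where 0.659% of all tested genes were called. At an unadjusted p under 0.05 alone, *Grm3* was higher and *Grm2* lower, 1 member in each direction (3.12% each), against 2.37% of all tested genes higher and 1.99% lower. Every cKO library lay above both controls for 3 members, *Grin2b*, *Grm3* and *Neto2* (9.38%), where the background share was 11.0%. Every cKO library lay below both controls for 2 members, *Grm2* and *Cacng2* (6.25%), where the background share was 9.41%. The counts of members whose groups did not overlap thus did not exceed the share among all genes. Of the 32 differences 9 were positive and 23 negative, with a median of −0.07 on the log2 scale (−0.02 within the first set and −0.10 within the second), while the median of all tested genes was 0.01. Relative to the neuron markers the median of the members was 0.07 and that of all genes 0.15. This scaling adds 0.13 to every difference by construction. The sign of the members' median thus depends on the scaling, while the order of these medians could not change. Centred on the astrocyte markers, a scaling added after the values were seen, the medians were −0.24 and −0.16.

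**Figure D1:**
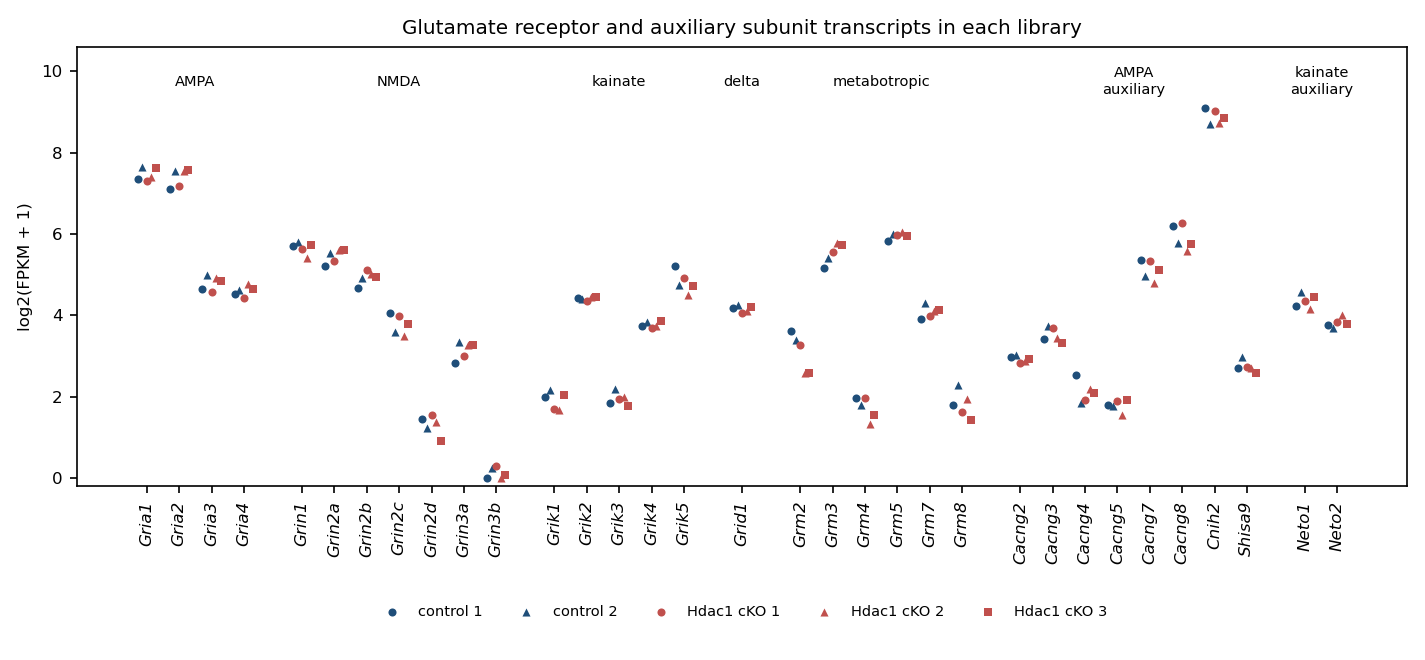
Level of each of the 33 genes in each library, as log2(FPKM + 1) on the vertical axis, grouped by receptor class. Blue symbols are the 2 controls and red symbols the 3 Hdac1 cKO libraries. Cnih2 is the highest in every library, at 417 to 546 FPKM, and Grin3b the lowest, at 0 to 0.219 FPKM.

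**Figure D2:**
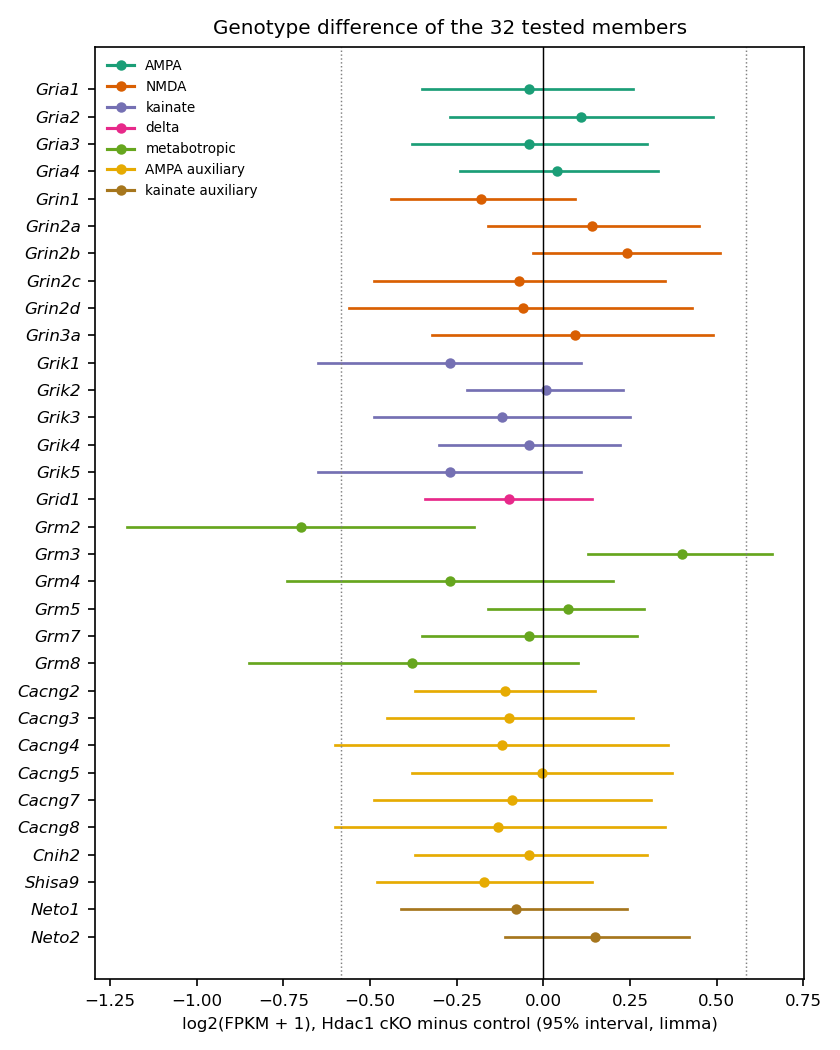
Difference between Hdac1 cKO and control for the 32 tested members on the log2(FPKM + 1) scale, with its 95% interval from limma (horizontal lines), coloured by receptor class. Dotted lines mark a fold of 1.5 in either direction. The intervals of Grm2 (−1.20 to −0.20) and Grm3 (0.13 to 0.66) leave out 0 and the other 30 include it.

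The metabotropic receptors showed the widest differences of any class, from −0.70 to 0.40. *Grm2* and *Grm3* form group II, receptors that lower cyclic AMP through an inhibitory G protein. *Grm2* is a neuronal autoreceptor that limits glutamate release, known in the hippocampus from the dentate granule cells and their mossy fibres, and *Grm3* is found in neurons and, strongly, in astrocytes. *Grm2* (minus strand, chr9:106546868-106558440, mm9) was at 11.2 and 9.57 FPKM in control mice, against 8.61, 4.95 and 4.99 FPKM in *Hdac1* cKO mice. All 3 cKO libraries were below both controls, and cKO 2 and cKO 3 were far lower than cKO 1. The means were 10.4 ± 1.18 FPKM (SD, n = 2) and 6.18 ± 2.10 FPKM (SD, n = 3), a log2 difference of −0.70 (SE 0.22) with a limma p of 0.0114 before and 0.955 after adjustment. The difference was −0.35 within the first set of libraries and −0.82 within the second. The gene is thinly covered, with an estimated 84.5 to 250 fragments per library. Without control 1, which leaves 1 control that is assumed to vary like the cKO libraries, the difference was −0.59 with an unadjusted p of 0.06, and with no filter on FPKM it was −0.70 with an unadjusted p of 0.0705. Without cKO 2 it was −0.58 and relative to the neuron markers −0.57, both just short of a fold of 1.5.

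*Grm3* (minus strand, chr5:9485236-9725352) was at 34.8 and 41.5 FPKM in control mice, against 46.0, 53.5 and 51.9 FPKM in *Hdac1* cKO mice. All 3 cKO libraries were above both controls. The means were 38.2 ± 4.71 FPKM (SD, n = 2) and 50.5 ± 3.94 FPKM (SD, n = 3), a log2 difference of 0.40 (SE 0.12) with a limma p of 0.00924 before and 0.955 after adjustment. It was 0.39 within the first set and 0.34 within the second, so the size was alike in both. With control 2 as the only control it was 0.27 with an unadjusted p of 0.0904, under the same assumption, and with every library rescaled to the same total (TPM) it was 0.33 with an unadjusted p of 0.0511. For either gene the exact two-sided permutation test gave p = 0.2, the smallest it can give with 2 libraries against 3.

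The ratio of *Grm3* to *Grm2* within a library uses both members and no scaling between libraries. It was 3.10 and 4.34 in control mice, against 5.35, 10.8 and 10.4 in *Hdac1* cKO mice. Since *Grm3* was higher and *Grm2* lower in every cKO library, the cKO ratios had to lie above the control ratios, so their order is no further evidence, and the values are given as a description. The log2 difference of the ratio was 1.20, and 0.79 and 1.29 within the sets. Neither gene shares exonic sequence with another gene in the annotation, and no member has a near-identical copy among coding transcripts (at least 95% identity over 200 nt).

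The 250 bases upstream of the starts of *Grm2* and *Grm3* are shown because these were the members under an unadjusted p of 0.05. They were read from the promoter table of RefSeq (GRCm38.p6), and each matched the NCBIM37 genome (mm9) exactly and at 1 place, chr9:106558441-106558690 and chr5:9725353-9725602, both on the minus strand. Capitals mark the letters GGGCGG, the core of the GC box bound by Sp family factors, searched on both strands.
Grm2: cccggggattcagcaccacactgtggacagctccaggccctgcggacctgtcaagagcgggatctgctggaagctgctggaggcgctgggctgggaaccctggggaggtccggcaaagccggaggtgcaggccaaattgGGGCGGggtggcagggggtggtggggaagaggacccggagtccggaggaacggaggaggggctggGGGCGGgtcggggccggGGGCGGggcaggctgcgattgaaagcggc
Grm3: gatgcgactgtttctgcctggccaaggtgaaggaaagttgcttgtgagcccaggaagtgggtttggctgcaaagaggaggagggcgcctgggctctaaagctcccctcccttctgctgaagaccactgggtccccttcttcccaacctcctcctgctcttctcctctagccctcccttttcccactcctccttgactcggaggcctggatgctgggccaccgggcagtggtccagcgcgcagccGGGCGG
The *Grm2* window holds 3 matches and 71.2% G or C, and the *Grm3* window 1 match, at its end next to the start site, and 62.4% G or C. Of the 33 genes 21 were found in the table, with 26 windows, of which 13 (50%) hold the letters, against 32.7% of all 32851 windows of this length. The median G and C content was 62% in the members' windows and 52.4% in all windows. These matches are descriptions of the sequence, and no factor's binding was measured in these libraries.

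Cell type markers stood beside both group II receptors. Of the 14 neuron markers 3 were lower at an unadjusted p under 0.05, *Nefm*, *Stmn2* and *Syn1* (21.4%, against 1.99% of all tested genes). Every cKO library was below both controls for 4 of them (28.6%, against 9.41%). It was above for 1, *Map2* (7.14%, against 11.0%). Of the 12 astrocyte markers 9 had a positive and 3 a negative difference (median 0.14), and 7 had every cKO library above both controls (58.3%, against 11.0% of all tested genes). At an unadjusted p under 0.05, 2 were higher (16.7%, against 2.37% of all tested genes), *Aqp4*, the water channel of astrocyte endfeet (difference 0.78), and *Gfap*, the astrocyte intermediate filament (0.43). *Grm3* amounted to 1.25% and 1.48% of the summed astrocyte markers in control mice and to 1.52%, 1.74% and 1.62% in *Hdac1* cKO mice. These shares were again higher in every cKO library, though cKO 1 lay close to control 2. Centred on the astrocyte markers, a scaling added after the values were seen, the difference of *Grm3* was 0.23 with an unadjusted limma p of 0.108. The 5 markers of dentate granule cells summed to 112 and 116 FPKM in control mice and to 107, 106 and 105 FPKM in *Hdac1* cKO mice, with a median difference of −0.06 and none under an unadjusted p of 0.05. *Grm2* amounted to 10.1% and 8.27% of this sum in control mice and to 8.06%, 4.69% and 4.75% in *Hdac1* cKO mice. Centred on the dentate markers, likewise added later, the difference of *Grm2* was −0.61 with an unadjusted limma p of 0.0196. *Slc17a6*, a vesicular glutamate transporter listed among the thalamus markers, was at 6.08 and 6.09 FPKM in control mice, against 3.94, 4.51 and 2.62 FPKM in *Hdac1* cKO mice (difference −0.62). The other 4 tested thalamus markers differed by −0.24 to 0.10, and their groups overlapped.

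**Figure D3:**
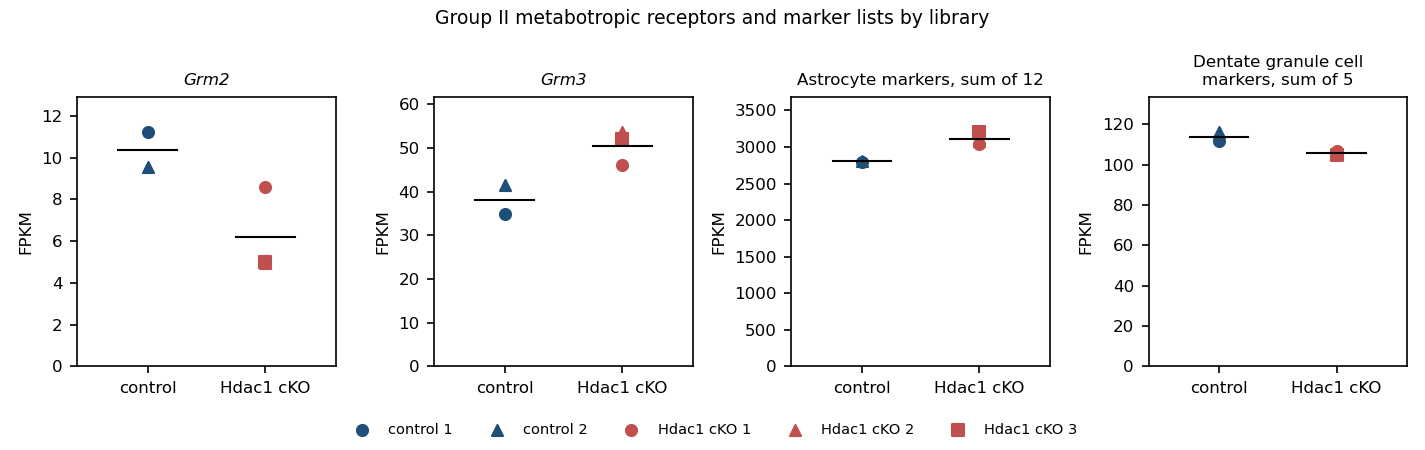
FPKM of Grm2 and Grm3 and the summed FPKM of 12 astrocyte and 5 dentate granule cell markers, by genotype. Each symbol is a library, blue for control (n = 2) and red for Hdac1 cKO (n = 3), and black lines are group means. Grm2 is lower (4.95 to 8.61 against 9.57 to 11.2 FPKM) and Grm3 higher (46.0 to 53.5 against 34.8 to 41.5 FPKM) in every cKO library.

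The other metabotropic receptors did not pass the unadjusted threshold with all libraries, FPKM as deposited and genotype as the only term. *Grm5*, the group I receptor that couples to phospholipase C and the most abundant metabotropic transcript here, was at 56.0 and 63.4 FPKM in control mice, against 61.6, 64.8 and 60.8 FPKM in *Hdac1* cKO mice. The groups overlapped, and the difference was 0.07 with a 95% interval of −0.16 to 0.29, and 0.13 and −0.01 within the sets. The ratio of *Grm3* to *Grm5* was 0.622 and 0.655 in control mice, against 0.748, 0.826 and 0.852 in *Hdac1* cKO mice, higher in every cKO library. Since *Grm3* itself was higher in every cKO library, this order largely repeats it. The group III receptors *Grm4*, *Grm7* and *Grm8* are presynaptic receptors that restrain release. *Grm8* had the second-lowest difference in the class, −0.38 (95% interval −0.85 to 0.10), at 2.48 and 3.86 FPKM in control mice, against 2.07, 2.85 and 1.69 FPKM in *Hdac1* cKO mice. *Grm4* was at 1.49 to 2.90 FPKM with a difference of −0.27 (−0.74 to 0.20), and *Grm7* at 14.1 to 18.7 FPKM with −0.04 (−0.35 to 0.27). Within the first and the second set the differences were −0.18 and −0.59 for *Grm8*, 0.0043 and −0.36 for *Grm4*, and 0.05 and −0.18 for *Grm7*. *Grm8* differed by −0.62 without control 1, which leaves 1 control. It was under an unadjusted limma p of 0.05 without cKO 2 (−0.52, p of 0.0433, adjusted 0.999). Centred on the astrocyte markers, a shift of −0.17 for every difference, it was at −0.55 (p of 0.0339, adjusted 0.307). In that fit 15.2% of all tested genes were under 0.05. *Grm4* was under 0.05 without cKO 1 (−0.45, p of 0.0353, adjusted 0.63). The class summed to 122 and 139 FPKM in control mice and to 136, 144 and 138 FPKM in *Hdac1* cKO mice, so the lower *Grm2* and higher *Grm3* stood within a total that overlapped between genotypes. The median difference of the 6 genes was −0.15, with 0.03 and −0.27 within the sets and 0.0088 without control 2.

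The 4 AMPA receptor subunits, the pore-forming units of fast transmission, differed by −0.04 to 0.11, and none was called or stood apart between genotypes. *Gria1*, the subunit inserted during long-term potentiation and on average the highest receptor subunit here, was at 162 and 198 FPKM in control mice, against 157, 169 and 197 FPKM in *Hdac1* cKO mice. Control 2 and cKO 3 were nearly equal, and the difference was −0.04 (95% interval −0.35 to 0.26). *Gria2*, the subunit that keeps the receptor impermeable to calcium, was at 137 and 186 FPKM in control mice, against 145, 185 and 190 FPKM in *Hdac1* cKO mice, a difference of 0.11 (−0.27 to 0.49). Here both libraries of the first set were low and the 3 of the second set high, whatever the genotype. *Gria2* made up 39.6% and 42.4% of the summed AMPA subunits in the controls and 42.0%, 45.1% and 43.3% in *Hdac1* cKO mice, and the groups overlapped. *Gria3* was at 22.8 to 30.8 FPKM with a difference of −0.04 (−0.38 to 0.30). *Gria4*, typical of interneurons, was at 20.6 to 26.4 FPKM with a difference of 0.04 (−0.24 to 0.33). Within the first and the second set the differences were −0.05 and −0.12 for *Gria1*, 0.08 and 0.01 for *Gria2*, −0.07 and −0.12 for *Gria3*, and −0.09 and 0.09 for *Gria4*. The intervals of all 4 genes leave out a fold of 1.5 in either direction.

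Among the NMDA receptor subunits the obligatory subunit *Grin1* and the regulatory subunit *Grin2b* differed in opposite directions. Neither passed the unadjusted threshold with all libraries, FPKM as deposited and genotype as the only term. *Grin1* was at 51.6 and 55.1 FPKM in control mice, against 48.3, 41.7 and 51.8 FPKM in *Hdac1* cKO mice. Control 1 lay just below cKO 3, so the groups overlapped, and the difference was −0.18 (95% interval −0.44 to 0.09), with −0.09 and −0.24 within the sets. *Grin2b*, which prevails early in development and at extrasynaptic sites, was at 24.4 and 29.4 FPKM in control mice, against 33.9, 31.5 and 30.0 FPKM in *Hdac1* cKO mice. All 3 cKO libraries were above both controls, by a small margin for cKO 3. The difference was 0.24 (SE 0.12) with a limma p of 0.0725 before and 0.955 after adjustment, and it was 0.46 within the first set and 0.06 within the second. The size rested on the controls, at 0.11 without control 1 and 0.37 without control 2, each with 1 control left. Relative to the neuron markers it was 0.37 (unadjusted limma p of 0.0137). That scaling adds 0.13 to every difference, and 10.4% of all tested genes were then higher at an unadjusted p under 0.05. *Grin2a*, which takes over at mature synapses, was at 36.2 and 45.0 FPKM in control mice, against 39.7, 47.5 and 47.5 FPKM in *Hdac1* cKO mice, with a difference of 0.14 (95% interval −0.16 to 0.45) and 0.13 and 0.08 within the sets. Of the exonic nt of *Grin1*, 1307 of 9700 lie opposite exons of *E130003G02Rik*, and whether counting used strand is not given in the sources used here.

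As shares of the summed NMDA subunits, the 2 groups did not overlap for *Grin1* and *Grin2b*. *Grin1* made up 38.0% and 36.4% in control mice, against 33.1%, 29.5% and 34.2% in *Hdac1* cKO mice. *Grin2b* made up 18% and 19.4% in control mice, against 23.3%, 22.3% and 19.8% in *Hdac1* cKO mice. The share of *Grin1* was thus lower and that of *Grin2b* higher in every cKO library, with log2 differences of −0.21 (−0.20 within each set) and 0.22 (0.37 and 0.11 within the sets). Shares of 1 sum are not independent of each other, and the groups overlapped for the shares of the other subunits. *Grin2b* was above both controls in every cKO library by FPKM too, so its share in part repeats that. By FPKM, 11.0% of all tested genes lay above both controls in every cKO library and 9.41% below. No such background was computed for shares. The ratio of *Grin2a* to *Grin2b* was 1.49 and 1.53 in control mice, against 1.17, 1.51 and 1.58 in *Hdac1* cKO mice, so that cKO 1 stood apart from the other 4 libraries. Of the less abundant subunits, *Grin2c* was at 10.3 to 15.6 FPKM (difference −0.07), *Grin2d*, found in interneurons, at 0.882 to 1.92 FPKM (−0.06), and *Grin3a*, which forms channels with low calcium permeability, at 6.15 to 9.23 FPKM (0.09). All groups overlapped for these 3 genes, and within the first and the second set the differences were −0.06 and 0.04, 0.09 and −0.08, and 0.16 and −0.08. The class summed to 136 and 151 FPKM in control mice and to 146, 141 and 152 FPKM in *Hdac1* cKO mice, and its median difference was 0.01 (0.11 and −0.02 within the sets).

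**Figure D4:**
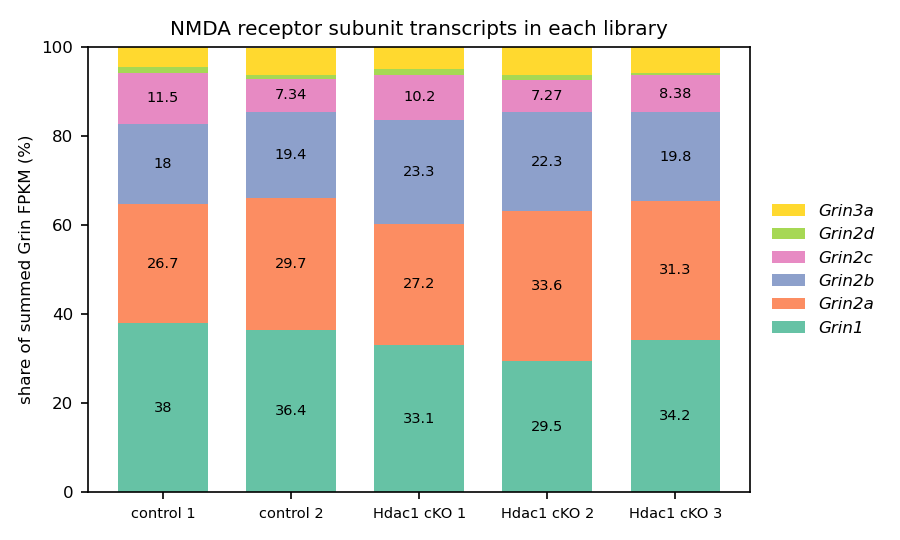
Share of each NMDA receptor subunit in the summed Grin FPKM of each library, in percent; Grin3b, at most 0.15%, is not drawn. The share of Grin1 is 36.4% to 38.0% in control mice, against 29.5% to 34.2% in the Hdac1 cKO libraries, and that of Grin2b 18% to 19.4% and 19.8% to 23.3%.

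With all libraries, FPKM as deposited and genotype as the only term, no kainate receptor subunit was called. Of the 5 subunits 4 had negative differences. Their median was −0.12 (−0.07 and −0.14 within the sets), but −0.00054 without control 2, −0.04 at a minimum of 5 FPKM and 0.01 relative to the neuron markers. *Grik5*, a high-affinity subunit that needs a partner to form a channel and the most abundant of the class, was at 35.8 and 25.8 FPKM in control mice, against 29.0, 21.7 and 25.2 FPKM in *Hdac1* cKO mice. The groups overlapped, and the difference was −0.27 (95% interval −0.65 to 0.11), with −0.29 and −0.14 within the sets. It was −0.04 (unadjusted p of 0.828) without control 1, −0.49 (0.0207) without control 2 and −0.16 (0.374) without cKO 2. *Grik1*, a channel-forming subunit found in interneurons, was at 2.96 and 3.47 FPKM in control mice, against 2.22, 2.19 and 3.12 FPKM in *Hdac1* cKO mice, a difference of −0.27 (−0.65 to 0.11) that was −0.30 within each set. Control 1 lay below cKO 3, so these groups overlapped as well, and without cKO 3 the difference was −0.39 (unadjusted p of 0.047). *Grik2*, the main channel-forming subunit of mossy fibre synapses, was at 19.4 to 21.0 FPKM over all 5 libraries, with a difference of 0.0076 (95% interval −0.22 to 0.23). *Grik3* was at 2.40 to 3.59 FPKM with a difference of −0.12 (−0.49 to 0.25). *Grik4*, the other high-affinity subunit, was at 11.8 to 13.6 FPKM with a difference of −0.04 (−0.30 to 0.22). Within the first and the second set the differences were −0.07 and 0.05 for *Grik2*, 0.10 and −0.32 for *Grik3*, and −0.07 and −0.05 for *Grik4*. *Grid1*, a delta receptor that binds synaptic organizers of the cerebellin family, was at 17.1 and 18.2 FPKM in control mice, against 15.6, 16.1 and 17.5 FPKM in *Hdac1* cKO mice, and its difference was −0.10 (−0.34 to 0.14), with −0.12 and −0.11 within the sets, or 0.03 relative to the neuron markers.

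All 8 auxiliary subunits of AMPA receptors had negative differences, from −0.17 to −0.0039. Their median of −0.10 turned to 0.03 relative to the neuron markers. No gene of the class was called with all libraries, FPKM as deposited and genotype as the only term. Within the sets the median was −0.009 and −0.08, and without control 1 it was 0.05. *Cnih2*, a cornichon protein that promotes export of AMPA receptors and slows their closing, was the highest of the 33 genes, at 546 and 417 FPKM in control mice, against 521, 422 and 458 FPKM in *Hdac1* cKO mice. Its libraries divided by set and not by genotype, and the difference was −0.04 (95% interval −0.37 to 0.30). The TARP family, transmembrane proteins that anchor AMPA receptors at the synapse, was led by *Cacng8*, the main hippocampal TARP, at 72.7 and 54.0 FPKM in control mice, against 75.7, 47.1 and 52.8 FPKM in *Hdac1* cKO mice. It too was high in both libraries of the first set, and the difference was −0.13 (−0.60 to 0.35). *Cacng8* made up 53.2% and 49.6% of the summed TARP transcripts in the controls and 54.7%, 49.3% and 48.9% in *Hdac1* cKO mice, with overlapping groups. *Cacng2*, the TARP stargazin, was at 6.81 and 7.10 FPKM in control mice, against 6.15, 6.35 and 6.61 FPKM in *Hdac1* cKO mice, so every cKO library was lower, by a difference of −0.11 (−0.37 to 0.15). *Cacng7* was at 26.9 to 40.3 FPKM and *Cacng3* at 9.03 to 12.4 FPKM, with differences of −0.09 and −0.10. *Cacng4* and *Cacng5* were at 1.92 to 4.74 FPKM, with differences of −0.12 and −0.0039. *Shisa9*, which speeds the desensitization of AMPA receptors in dentate granule cells, was at 5.55 and 6.87 FPKM in control mice, against 5.66, 5.56 and 4.95 FPKM in *Hdac1* cKO mice, and its difference of −0.17 (−0.48 to 0.14) was the lowest of the class. Within the first and the second set the differences were −0.07 and 0.08 for *Cnih2*, 0.06 and −0.11 for *Cacng8*, −0.13 and −0.12 for *Cacng2*, and 0.02 and −0.33 for *Shisa9*. They were 0.27 and −0.36 for *Cacng3*, −0.62 and 0.30 for *Cacng4*, 0.08 and −0.04 for *Cacng5*, and −0.04 and −0.02 for *Cacng7*. Of these 8 genes, *Cacng2* and *Cacng7* were negative in both sets. With 1 control left, *Cacng4* was at −0.47 without control 2 and *Cacng3* at −0.36 in the second set alone. Centring on the astrocyte markers shifts every difference by −0.17. *Cacng2* (−0.28, limma p of 0.0467) and *Shisa9* (−0.34, 0.0469) were then under an unadjusted p of 0.05, with an adjusted p of 0.326. In that fit 15.2% of all tested genes were under it.

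*Neto1* and *Neto2* slow the gating of kainate receptors. *Neto1* was at 17.8 and 22.9 FPKM in control mice, against 19.3, 16.9 and 21.0 FPKM in *Hdac1* cKO mice, with overlapping groups and a difference of −0.08 (95% interval −0.41 to 0.24), which was 0.11 and −0.27 within the sets. *Neto2* was at 12.5 and 12 FPKM in control mice, against 13.4, 15.2 and 12.8 FPKM in *Hdac1* cKO mice. Every cKO library of *Neto2* was above both controls, cKO 3 only just, and the difference was 0.15 (−0.11 to 0.42), with 0.09 and 0.20 within the sets.

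Part of the variation among these libraries followed the sets and not the genotypes. All 3 libraries of the second set lay above both of the first for 7 members, the 4 AMPA subunits, *Grin2a*, *Grin3a* and *Grm7* (21.9%, against 26.1% of all tested genes). They lay below for another 7, *Grin2c*, *Grin2d*, *Grik5*, *Grm4*, *Cacng7*, *Cacng8* and *Cnih2* (21.9%, against 14.0% of all tested genes). With genotype in the model the first 7 were 0.19 to 0.40 higher and the other 7 lower by differences of −0.52 to −0.31 in the second set. The G and C content of the longest coding transcript was 38.1% to 51.6% in the members that were higher in the second set and 58.1% to 65.0% in those that were lower, with no overlap. Across the 32 members the rank correlation of G and C content with the difference between sets was −0.712, and across 11757 tested genes with a coding transcript it was −0.369. The correlation of G and C content with the difference between genotypes was −0.482 over the members and −0.373 over all these genes, and with the set in the model −0.317 and −0.299. Within the first and the second set it was −0.196 and −0.21 over the members, and −0.169 and −0.295 over all these genes. Genes are not independent replicates, and they share the libraries, so these values are descriptions. *Grm2*, with 59.9% G and C, had a difference between sets of −0.48, and *Grm3*, with 46.7%, of 0.21, in each case in the direction of their difference between genotypes. With the set in the model the genotype differences were −0.62 for *Grm2* (limma, adjusted p = 0.405) and 0.36 for *Grm3* (limma, adjusted p = 0.342). The ratio of *Cnih2* to the summed AMPA subunits was 1.58 and 1.51 in the first set (control 1 and cKO 1) and 0.950, 1.03 and 1.04 in the second (control 2, cKO 2 and cKO 3), and so followed the sets.

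**Figure D5:**
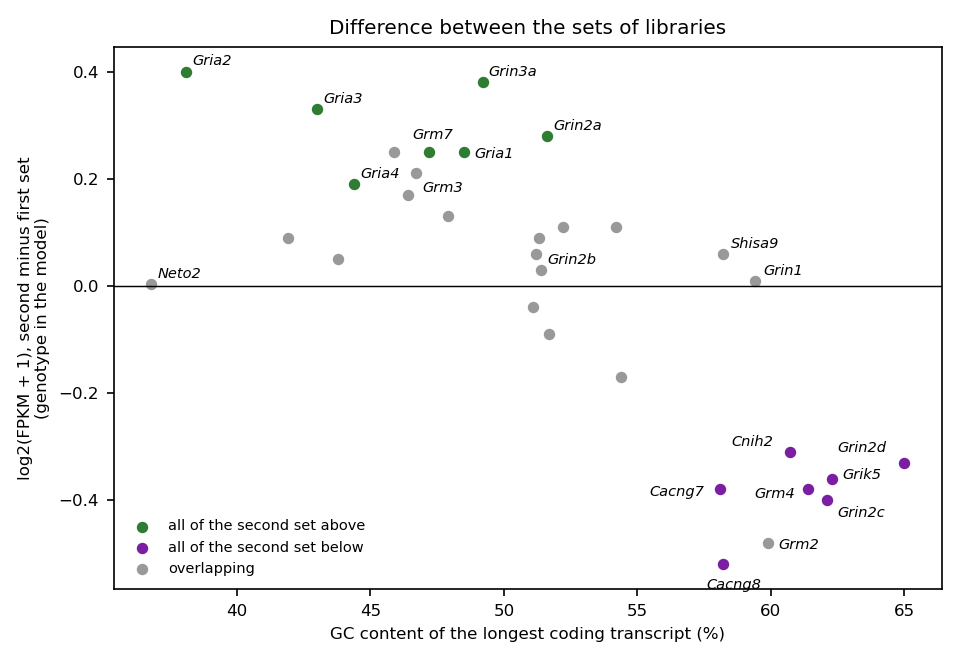
Difference between the second and the first set of libraries for the 32 tested members, on the log2(FPKM + 1) scale with genotype in the model, against the G and C content of the longest coding transcript in percent. Green points are members with all libraries of the second set above the first, purple points those with all below, grey points the others. Green points lie between 38.1% and 51.6%, purple points between 58.1% and 65.0%.

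Genes of the scaffold and of other partners of glutamate receptors were described as a list alongside the members. Of 31 genes named, 29 were analysed here, and all 29 were tested. None was under an unadjusted p of 0.05 in limma, 7 differences were positive and 22 negative, and the median was −0.09, against −0.07 for the receptor genes and 0.01 for all tested genes. Every cKO library lay above both controls for 4 of them (13.8%, against 11.0% of all tested genes) and below for 5 (17.2%, against 9.41%). *Dlg4*, the scaffold PSD-95 of the postsynaptic density, was at 208 and 191 FPKM in control mice, against 180, 169 and 175 FPKM in *Hdac1* cKO mice (difference −0.19). *Homer1*, which links group I metabotropic receptors to the scaffold, was at 37.9 and 36.2 FPKM in control mice, against 41.2, 46.4 and 39.7 FPKM in *Hdac1* cKO mice (difference 0.19).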

How the data were processed

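The authors deposited FPKM values, made with Tophat2 and Cufflinks 2.0.0 on UCSC mm9 from total RNA libraries (TruSeq). FPKM divides a gene's fragments by its transcript length and by the mapped fragments of the library. The files give no read totals. Depth was estimated from the FPKM value of 1 fragment in low genes, and no interval was derived from it. Libraries were placed in sets where over 10% of genes under 0.3 FPKM shared a window of 0.05 in their log2 ratio.

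Genes whose mean reached 1 FPKM were tested with limma 3.58.1 (R 4.3.3, variance trend) on log2(FPKM + 1), a scale that understates the change of low genes, with genotype as the only term, two-sided p-values and Benjamini-Hochberg adjustment over all tested genes. The fit was tested on simulated data. Coordinates are from GENCODE vM1 (NCBIM37). Values by library are given for members under an unadjusted p of 0.05, for the highest and the most different member of each class, and for members of ratios or with separated groups. *Grm8*, *Dlg4*, *Homer1* and *Slc17a6* were named after their values were seen. The members and lists were chosen with earlier results of these data known. Alternatives were another pseudocount (0.1), other filters (none, 5 FPKM), 4 scalings, no variance trend, replicate or set as a block, and leaving out each library.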

Additional observations from a re-analysis of the deposited data

How the results depend on the processing

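No member reached an adjusted limma p of 0.05 in the 19 fits made, where the smallest was 0.112, in the second set alone. *Grm2* was lower and *Grm3* higher in every fit with their p, by −0.93 to −0.57 and 0.23 to 0.53, and within the first set by −0.35 and 0.39. They were under an unadjusted p of 0.05 in 15 of 17 and 14 of 17 fits. The labels name no common origin for same-numbered libraries, which also share a set. With 2 controls the deviations of one mirror those of the other, so the correlations with control 1 (0.402 for cKO 1) and control 2 (0.269 for cKO 2, 0.151 for cKO 3) are not separate checks of a pairing. With the replicate block 2 members were higher (*Grin2b* and *Grm3*) and 4 lower (*Grin1*, *Grik1*, *Grik5* and *Grm2*) at an unadjusted p under 0.05, where 1 and 1 were without it. The shares of all genes so called were 5.91% and 5.31%, against 2.37% and 1.99% without it. With the block the median of the NMDA class was 0.07. With the set as a block *Cnih2* was at 0.02 in place of −0.04.

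The count past a fold of 1.5 and the unadjusted p was 0 with no filter on FPKM, 0 when centred on the neuron markers and 2 (*Grm2* and *Grm8*) in the second set alone, an alternative added after the sets were seen, where the shares of all genes were 0.253%, 1.04% and 1.62%. In the second set, as in every fit without 1 control, a single control is assumed to vary like the cKO libraries. Leaving out a library gave 0 (without cKO 2, 0.722% of all genes) to 1 (up to 1.81%), and without control 1 that gene was *Grm8* (1.19%). Higher members at an unadjusted p under 0.05 were 0 after rescaling to a common total (TPM), 3 when centred on the neuron markers (0.895% and 10.4% of all genes), and 0 (without control 1, 1.88%) to 2 (without control 2, 2.94%) when a library was left out. Lower members were 0 with no filter (2.27%) and 1 to 3 (without control 2, 2.44%) when a library was left out. Members with every cKO library below both controls were 4 with median-ratio size factors (10.5% of all genes), 4 with quantile normalization (9.72%), 4 after rescaling to a common total (15.5%), 0 when centred on the neuron markers (1.63%), and 3 (14.2%) to 14 (without control 1, 25.8%) when a library was left out. Those above were 0 after rescaling (4.3%), 5 when centred on the neuron markers (33.5%), and 3 (16%) to 8 (without control 2, 32.7%). Members higher in the second set were 9 (33.5%) to 12 (32.9%) when a library was left out.

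The median of the NMDA class was 0.09 at a minimum of 5 FPKM, −0.04 after rescaling, 0.15 against the neuron markers, 0.11 in the first set, and −0.0029 to 0.08 with a library left out. The kainate median was −0.04, −0.17, 0.01 and −0.07 in the same order, and −0.16 to −0.00054. The metabotropic median was 0.01 at a minimum of 5 FPKM, −0.02 against the neuron markers, 0.03 and −0.27 in the sets, and −0.21 to 0.0088. The median of the AMPA auxiliary subunits was 0.03 against the neuron markers and −0.16 to 0.05 with a library left out. The kainate auxiliary median was −0.03 after rescaling, 0.17 against the neuron markers, 0.10 and −0.03 in the sets, and −0.04 to 0.11. For all members it was −0.12 after rescaling, 0.07 against the neuron markers, −0.02 in the first set, and −0.10 to −0.0078. Centring on the astrocyte markers, added later, shifts every difference by −0.17 and gave −0.24 (all genes −0.16). *Grin1*, *Grik1*, *Grik5*, *Grid1*, *Grm8*, *Cacng2* and *Shisa9* were then also lower at an unadjusted limma p under 0.05. In that fit 15.2% of all genes were under it. Centred on the dentate markers *Grin2b* was also higher (0.33, unadjusted limma p of 0.0193), where 8.56% of all genes were under 0.05.

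Centring on the neuron markers adds 0.13 to every difference by construction, which turned the sign of 16 of 32 members, among them *Gria1* (0.09), *Grid1* (0.03), *Cnih2* (0.10), *Cacng8* (0.0076) and *Neto1* (0.05), and rescaling turned *Grm5* (−0.0004). Leaving out a library turned the sign of 12 of 32 members without control 1, 8 without control 2, and 4, 7 and 2 without cKO 1, cKO 2 and cKO 3. Of the members followed in every fit these were *Gria1* (−0.19 to 0.10), *Gria2* (−0.11 to 0.33), *Grin2a* (−0.0088 to 0.30), *Grm5* (−0.02 to 0.15), *Cnih2* (−0.23 to 0.16), *Cacng8* (−0.34 to 0.08) and *Neto1* (−0.26 to 0.09). The cause of these turns was not tested. Among tested members, the lowest estimated fragments were those of *Grin2d* (30.2 to 70.6), *Grik1* (32.5 to 66.3) and *Grm4* (34.7 to 89). *Shisa9* (36.5 to 57.8), *Cacng5* (36.6 to 67.5) and *Grm8* (41.2 to 98.2) came next by their lowest library. How far depth limits these members was not tested.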
